A study of Mus musculus with 3 samples.

Results

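The enzymes that carry glucose to pyruvate and lactate, the kinases and subunits that govern pyruvate entry into mitochondria, and genes of the hypoxia response were followed through 3 passages of a mouse embryonic stem cell line. The 32 genes were listed by symbol and matched to the Ensembl IDs of the deposited table, and all 32 were found among its 50043 gene IDs. Each passage, P0, P1 and P2, was represented by 1 library of total RNA. All 3 libraries came from KH2 cells that carry an inducible knockout of Pold3, an accessory subunit of the replicative DNA polymerase delta. The labels name no inducing agent, no time of induction, no days between passages and no line without the knockout allele, so passage cannot be told apart from time since induction. Since a passage is a single library, its values could not be set against a spread between replicates, and the text holds no p-values.

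The authors' values are FPKM, read counts divided by gene length in kilobases and by the library total in units of 1000000. Those totals, recovered from the values, came to 23213528, 18059914 and 22405670 reads for P0, P1 and P2. Pold3 itself measured 49.2 FPKM at P0, 13.0 at P1 and 11.6 at P2, so the libraries labelled P1 and P2 held less of the targeted message than that labelled P0. All 8 stem cell markers examined, among them Pou5f1, Nanog and Sox2, were above 1 FPKM in all 3 libraries and summed to 4095, 3946 and 4239 FPKM at P0, P1 and P2. Their median difference in log2(FPKM + 1) at P2 against P0 was -0.18, close to that of the 32 genes. Esrrb stood at 118 FPKM at P2 and 221 at P0, and Sox2, Utf1, Zfp42 and Pou5f1 were also lower at P2. Dppa5a, Tdgf1 and Nanog were higher at P2. Markers of other cell types also differed between the libraries. The 8 fibroblast markers summed to 12.8, 20.9 and 24.1 FPKM at P0, P1 and P2, with Prrx1 at 0 at P0. Of the 3 of 8 at 1 FPKM or more, Col1a1 and Thy1 rose at P1 and P2 against P0. The other, Twist1, was lower at both, at 5.65, 4.08 and 4.61 FPKM at P0, P1 and P2. The 6 trophoblast markers summed to 33.2, 38.7 and 66.5 FPKM, most of it Tfap2c, at 25.9, 30.5 and 50.9 FPKM. Cdx2, Gata3 and Krt7 rose at P2 against P0, to 1.78, 2.54 and 2.75 FPKM, and Eomes was lowest at P1. The 4 neural markers summed to 127, 127.5 and 179.5 FPKM, nearly all of it Tubb3, while Pax6 and Sox1 fell at P1 against P0. The 5 endoderm markers summed to 4.55, 4.44 and 6.93 FPKM and the 4 mesoderm markers to 1.12, 1.92 and 2.14 FPKM. The part of other cell types in the differences below was not tested, and in bulk RNA fewer cells of a type and less RNA per cell cannot be told apart.

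Glycolysis splits glucose into pyruvate, which is either reduced to lactate by lactate dehydrogenase or oxidised in mitochondria by the pyruvate dehydrogenase complex. Pyruvate dehydrogenase kinases phosphorylate that complex and close this gate. Under low oxygen the prolyl hydroxylases of the Egln family stop marking HIF1A for destruction, and the factor then raises glycolytic genes, Pdk1 and a set of stress genes, largely through the short core motif ACGTG or GCGTG. Naive mouse embryonic stem cells are known for high glycolytic flux together with active respiration.

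A difference was counted as a rise or a fall when log2(FPKM + 1) differed by at least 1 between 2 libraries (2-fold on this scale). Genes below 1 FPKM in both libraries were left out. All 32 genes reached 1 FPKM in all 3 libraries, so no gene was lost to this limit. Ratios of FPKM carry exact 95% intervals from the reads behind the values, which cover counting error only and compare 2 libraries, not 2 conditions. At P2 against P0, Hk2 and Pdk1 fell and Ldhb rose. These are 2 falls among 32 genes where 1.16% of 13472 genes compared fell, and 1 rise where 6.72% rose. Over all genes these were 905 rises and 156 falls as deposited, and 621 and 259 after quantile normalization. At P1 against P0 none of the 32 passed 2-fold, where 4.12% of 13288 genes rose and 0.549% fell (548 and 73 genes as deposited, and 384 and 128 after quantile normalization). At P2 against P1 only Eno2 did, falling, where 0.883% of 13585 genes fell and 0.78% rose (106 rises and 120 falls as deposited, and 128 and 71 after rescaling without short RNA genes and unnamed models).

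Most of the 32 genes thus moved by less than 2-fold, and more of them downward than upward. At P2 against P0, 21 were lower and 11 higher (65.6% lower, against 42.3% of all genes compared), with a median difference in log2(FPKM + 1) of -0.18 against 0.07 over all genes. At P1 against P0 the median was -0.01 against 0.06 over all genes, and at P2 against P1 it was -0.14 against 0.02. The median of the 32 was thus lower in the second step, but not that of each group. For the 15 genes of glycolysis and lactate dehydrogenase it was 0.03 and then -0.215. For the 7 genes of the pyruvate gate it was -0.01 and then -0.06. For the 10 genes of oxygen sensing and hypoxia it was -0.13 and then 0.03. Hk2 and Pdk1 differed more in the first step (-0.69 and -0.56) than in the second (-0.49 and -0.44). The levels of 13 genes were lower at each passage than at the one before (40.6%, against 19.1% of 13758 genes with 1 FPKM in any library), and those of 7 were higher at each passage (21.9%, against 31.1%). No limit on size was set for these orders.

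**Figure D1:**
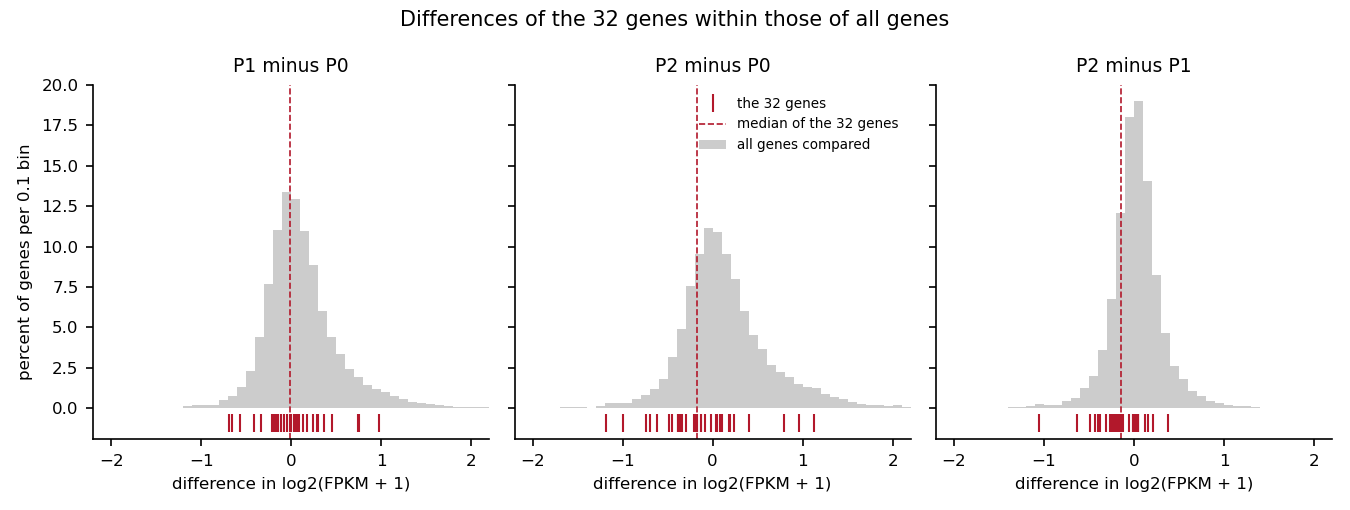
Percent of all genes compared (grey bars, 0.1 bins) by their difference in log2(FPKM + 1) for P1 minus P0, P2 minus P0 and P2 minus P1, with the 32 genes as red ticks under the axis and their median as a dashed line. The dashed line sits at -0.01, -0.18 and -0.14, while the grey bars centre near 0 with a longer right side at P1 and P2 against P0.

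The promoters of 5 genes are shown because 3 of them passed 2-fold at P2 against P0 and the other 2, Bnip3 and P4ha2, are hypoxia-inducible genes that moved in opposite directions. Each stretch is the 250 bases before a start site from RefSeq on GRCm38.p6, read 5′ to 3′ on the gene's strand. This build is later than the mm9 named for the data. Pdk1 had 2 such stretches, and the 1 with the most matches to the motif is shown. The stretches lie at chr6:82774455-82774704 (minus strand) for Hk2, chr2:71872974-71873223 (plus) for Pdk1, chr6:142507958-142508207 (minus) for Ldhb, chr7:138909507-138909756 (minus) for Bnip3 and chr11:54100674-54100923 (plus) for P4ha2. Capitals mark ACGTG or GCGTG on either strand, so that CACGT and CACGC are matches on the opposite strand.
Hk2: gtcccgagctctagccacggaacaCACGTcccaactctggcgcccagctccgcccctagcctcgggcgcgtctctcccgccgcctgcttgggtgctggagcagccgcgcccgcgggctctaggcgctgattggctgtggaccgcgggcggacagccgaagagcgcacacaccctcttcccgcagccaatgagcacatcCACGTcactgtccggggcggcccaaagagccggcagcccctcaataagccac
Pdk1: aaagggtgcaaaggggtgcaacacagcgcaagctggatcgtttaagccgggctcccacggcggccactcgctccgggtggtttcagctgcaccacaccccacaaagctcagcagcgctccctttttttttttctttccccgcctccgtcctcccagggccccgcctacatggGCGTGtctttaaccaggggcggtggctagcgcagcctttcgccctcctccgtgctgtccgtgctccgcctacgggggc
Ldhb: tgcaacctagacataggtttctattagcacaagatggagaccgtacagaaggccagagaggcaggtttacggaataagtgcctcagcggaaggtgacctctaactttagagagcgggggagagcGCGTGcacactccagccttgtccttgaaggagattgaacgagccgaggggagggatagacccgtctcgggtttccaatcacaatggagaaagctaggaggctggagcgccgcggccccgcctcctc
Bnip3: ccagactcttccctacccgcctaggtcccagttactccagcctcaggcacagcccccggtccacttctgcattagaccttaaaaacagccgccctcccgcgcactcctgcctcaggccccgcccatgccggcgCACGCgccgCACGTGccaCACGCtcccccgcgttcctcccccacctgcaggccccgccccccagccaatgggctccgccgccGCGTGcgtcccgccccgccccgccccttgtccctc
P4ha2: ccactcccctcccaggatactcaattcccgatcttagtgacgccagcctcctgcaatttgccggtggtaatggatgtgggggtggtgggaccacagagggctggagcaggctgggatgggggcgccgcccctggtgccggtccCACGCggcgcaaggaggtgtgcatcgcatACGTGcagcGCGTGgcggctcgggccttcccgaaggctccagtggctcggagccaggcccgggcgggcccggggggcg

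Counted from the start site, Hk2 held 2 matches, at -226 and -52 and both on the opposite strand, and Ldhb held 1 at -126. Pdk1 held 1 at -78 and another that runs across the start site and is not printed whole. Bnip3 held matches at 4 places, the second of which is a CACGTG read on both strands, and P4ha2 held 3 in the printed stretch and 1 beyond the start. Thus Ldhb, which rose at P2 against P0, held the motif, as did Hk2 and Pdk1 (in 1 of its 2 windows), which both fell. Eno2, which fell at P2 against P1, did not hold it. In windows of 250 bases before to 50 after each start, 27 of the 31 genes with a window (87.1%) held it in at least 1 window (32 of their 42 windows), against 12628 of 27025 genes in RefSeq (46.7%). Base composition was not matched in this count, a match is not a binding site, and the genes with no window holding one were Gpi1, Tpi1, Eno2 and Dlat.

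Hexokinase phosphorylates glucose on entry, and the isozymes Hk1 and Hk2 exchanged rank. Hk2, the inducible isozyme, measured 78.9 FPKM at P0, 48.4 at P1 and 34.1 at P2, from 4306, 2056 and 1796 reads. It was lower at each passage than at the one before, and at P2 it was 2.31-fold lower than at P0 (interval 2.19 to 2.45). Hk1, the constitutive isozyme, measured 35.3, 36.2 and 37.4 FPKM at P0, P1 and P2. Its ratio of P2 to P0 was 1.06 (interval 0.971 to 1.15), and the difference turned negative, at -0.05, when libraries were scaled by median of ratios. The ratio of Hk2 to Hk1 was 2.23 at P0, 1.34 at P1 and 0.912 at P2, which is a change of 2.45-fold between P2 and P0 (interval 2.21 to 2.71) that a scale factor per library does not alter. The gene lengths behind the FPKM are means over annotated transcripts, 1297 bases for Hk1 and 2351 for Hk2, so the rank of the isozymes depends on these lengths while the change in their ratio does not.

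Upper glycolysis beyond hexokinase held the isomerase Gpi1, the aldolases Aldoa and Aldoc and the triose phosphate isomerase Tpi1, and none passed 2-fold. Aldoa measured 981 FPKM at P0, 907 at P1 and 754 at P2, and its level at P2 was 0.769 of that at P0 (interval 0.754 to 0.785). Tpi1 measured 370.2, 328 and 265 FPKM at P0, P1 and P2, with a ratio of P2 to P0 of 0.715 (interval 0.688 to 0.744). Both were thus lower at each passage than at the one before. Gpi1 went the other way, at 401, 439.7 and 453 FPKM, and was 1.13 times as high at P2 as at P0 (interval 1.10 to 1.16). Aldoc, the isozyme best known from brain, supplied at most 1.01% of the summed aldolase FPKM and was lowest at P2, at 8.06, 9.26 and 5.62 FPKM at P0, P1 and P2.

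Lower glycolysis carries the most abundant messages of the set. Gapdh, the glyceraldehyde phosphate dehydrogenase often used as a reference gene, measured 3789 FPKM at P0, 3383 at P1 and 3001.2 at P2, and its level at P2 was 0.792 of that at P0 (interval 0.784 to 0.8003). Pkm, the pyruvate kinase gene, measured 2482, 2411 and 2163 FPKM, and the enolase gene Eno1 2299, 2179.8 and 1878 FPKM, at P0, P1 and P2. These 3 genes shared the same downward order, with ratios of P2 to P0 of 0.871 for Pkm (interval 0.861 to 0.881) and 0.817 for Eno1 (interval 0.806 to 0.828). Under quantile normalization the first step turned to 0.02 for Eno1 and 0.01 for Pkm at P1 against P0, so that order holds for the values as deposited. The kinase gene Pgk1 measured 368, 387 and 336 FPKM and the mutase gene Pgam1 588, 624 and 630.4 FPKM at P0, P1 and P2. Pgam1 was thus slightly higher at P2 than at P0, by 0.10 in log2(FPKM + 1), a direction that turned to -0.03 under median-of-ratios scaling.

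Enolase isozymes other than Eno1 were scarce. Eno2, the neuron-enriched isozyme, measured 2.98 FPKM at P0, 4.11 at P1 and 1.45 at P2, from 83, 89 and 39 reads. It was the gene that fell between P1 and P2, being 2.83-fold lower at P2 than at P1 (interval 1.92 to 4.24). Against P0 it was 2.05-fold lower at P2 (interval 1.39 to 3.09). That difference came to -0.70 in log2(FPKM + 1) and so was not counted as a fall. Eno3, the muscle-enriched isozyme, measured 14.2, 17.5 and 14.5 FPKM, and at P2 it lay within the counting interval of P0 (ratio 1.03, interval 0.867 to 1.21). Its difference at P2 against P0, 0.03 as deposited, lay between -0.09 and -0.05 under median-of-ratios scaling, quantile normalization and thinning to the depth of P1. Together Eno2 and Eno3 supplied under 1% of the summed FPKM of Eno1, Eno2 and Eno3 in all 3 libraries, where Eno1 made up 99.3% at P0, 99.0% at P1 and 99.2% at P2. That sum leaves out Eno1b, a protein-coding gene that shares sequence with Eno1 and was listed at 113.5, 109.2 and 101.1 FPKM at P0, P1 and P2.

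Near-identical copies limit how surely reads can be given to some of these genes. Counted as stretches of 50 bases, 25.9% of the Eno1 transcript sequence also occurred in 3 other annotated genes, among them the intronless gene Eno1b and the pseudogene Gm4735. Those copies held reads amounting to 11.6, 11.8 and 12.5% of the Eno1 reads at P0, P1 and P2. Gapdh shared 24.7% of its stretches with 89 other genes, and Pgk1 shared 53.9% with 3, but the reads counted on these copies came to less than 1% of either gene's own. Of the 32 genes, 17 had no such copy, Hk2 and Pdk1 among them, and the single copy of Ldhb held 1.37, 0.520 and 0.322% of its reads at P0, P1 and P2. The labels do not say how reads with several matches were counted, so reads moved between a gene and its copies cannot be seen in the table.

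Lactate dehydrogenase is built from the subunits LDHA, which prevails in glycolytic tissues, and LDHB, which prevails in oxidative ones. Ldha measured 1256 FPKM at P0, 1242 at P1 and 959 at P2. Its level did not differ beyond counting error between P1 and P0 (ratio 0.989, interval 0.971 to 1.01), and at P2 it was 0.764 of that at P0 (interval 0.750 to 0.778). Ldhb measured 51.8, 87.8 and 114 FPKM at P0, P1 and P2, from 1019, 1345 and 2174 reads, and was higher at each passage than at the one before. At P2 it was 2.21 times as high as at P0 (interval 2.05 to 2.38), and it was the gene of the 32 that rose. The ratio of Ldha to Ldhb was 24.3 at P0, 14.1 at P1 and 8.38 at P2, which is a change of 2.89-fold between P2 and P0 (interval 2.68 to 3.13). The share of Ldhb in the summed FPKM of both genes was 3.96% at P0, 6.605% at P1 and 10.7% at P2, so Ldha stayed the main message. Under median-of-ratios scaling the difference of Ldhb, 0.9992, lay just short of the limit.

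**Figure D2:**
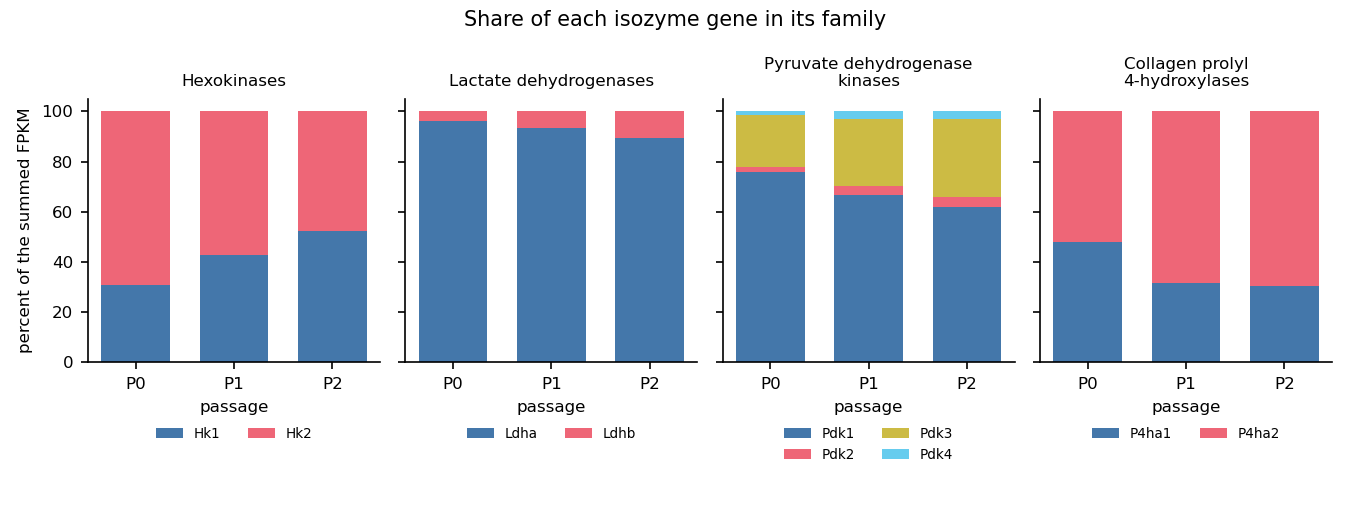
Share of each isozyme gene in the summed FPKM of its family (percent) at P0, P1 and P2, 1 library each, for hexokinases, lactate dehydrogenases, pyruvate dehydrogenase kinases and collagen prolyl 4-hydroxylases. Hk2 takes 69.1, 57.2 and 47.7% at P0, P1 and P2, Ldhb 3.96, 6.605 and 10.7%, Pdk1 75.8, 66.8 and 61.9%, and P4ha2 52.1, 68.3 and 69.5%.

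Summed over the 15 genes of glycolysis and lactate dehydrogenase, levels were 12726 FPKM at P0, 12104 at P1 and 10648 at P2. This was 1.83, 1.74 and 1.54% of the FPKM of all genes in those libraries. The median difference of these 15 genes at P2 against P0 was -0.29, against 0.07 over all genes compared. It was 0.03 at P1 against P0, where the genes of this group were spread around 0.

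The pyruvate gate was the place of the other fall. Pdk1, the kinase gene that responds to low oxygen, measured 123.9 FPKM at P0, 83.5 at P1 and 61.4 at P2, from 5176, 2712 and 2476 reads. It was 2.02-fold lower at P2 than at P0 (interval 1.92 to 2.12) and lower at each passage than at the one before. Its difference of -1.001 in log2(FPKM + 1) lay at the limit for a fall, and it did not pass after rescaling to 1000000 per library, with all genes or without short RNA genes, or after thinning to the depth of P1. Pdk3 measured 33.8, 33.7 and 30.9 FPKM at P0, P1 and P2, with a ratio of P2 to P0 of 0.913 (interval 0.824 to 1.01). The ratio of Pdk1 to Pdk3 was 3.66 at P0, 2.48 at P1 and 1.99 at P2, which is a change of 1.84-fold between P2 and P0 (interval 1.65 to 2.06).

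Pdk2 and Pdk4 were low. Pdk2, a widely expressed kinase, measured 3.31, 4.31 and 4.10 FPKM at P0, P1 and P2, and Pdk4, the kinase induced by fasting in muscle and liver, 2.37, 3.60 and 2.85 FPKM. Between 72 and 97 reads lay behind each of these values, and the intervals of both ratios of P2 to P0 held 1. The direction of Pdk4 at P2 against P0 turned negative under quantile normalization. Pdk4 at P1 was 1.52 times as high as at P0 (interval 1.12 to 2.07). All 4 kinase genes together summed to 163 FPKM at P0, 125 at P1 and 99.2 at P2, with Pdk1 at 75.8, 66.8 and 61.9% of the sum.

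The complex that these kinases act on differed little. Pdha1, the E1 alpha subunit that carries the phosphorylated serines, measured 144 FPKM at P0, 126 at P1 and 125 at P2. Pdhb, the E1 beta subunit, measured 112, 114 and 116 FPKM, and Dlat, the E2 subunit, 107, 95.1 and 94.6 FPKM. The direction of Pdhb turned negative under median-of-ratios scaling and quantile normalization. The ratios of P2 to P0 were 0.866 for Pdha1 (interval 0.826 to 0.907), 1.04 for Pdhb (interval 0.991 to 1.08) and 0.882 for Dlat (interval 0.836 to 0.931). Set against its substrate's message, Pdk1 stood at 0.860 of the Pdha1 level at P0, 0.663 at P1 and 0.492 at P2, which is a change of 1.75-fold between P2 and P0 (interval 1.63 to 1.87). Pdha1 shares 12.5% of its sequence stretches with 1 other gene, whose reads came to 4.51, 5.55 and 7.48% of its own at P0, P1 and P2.

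**Figure D3:**
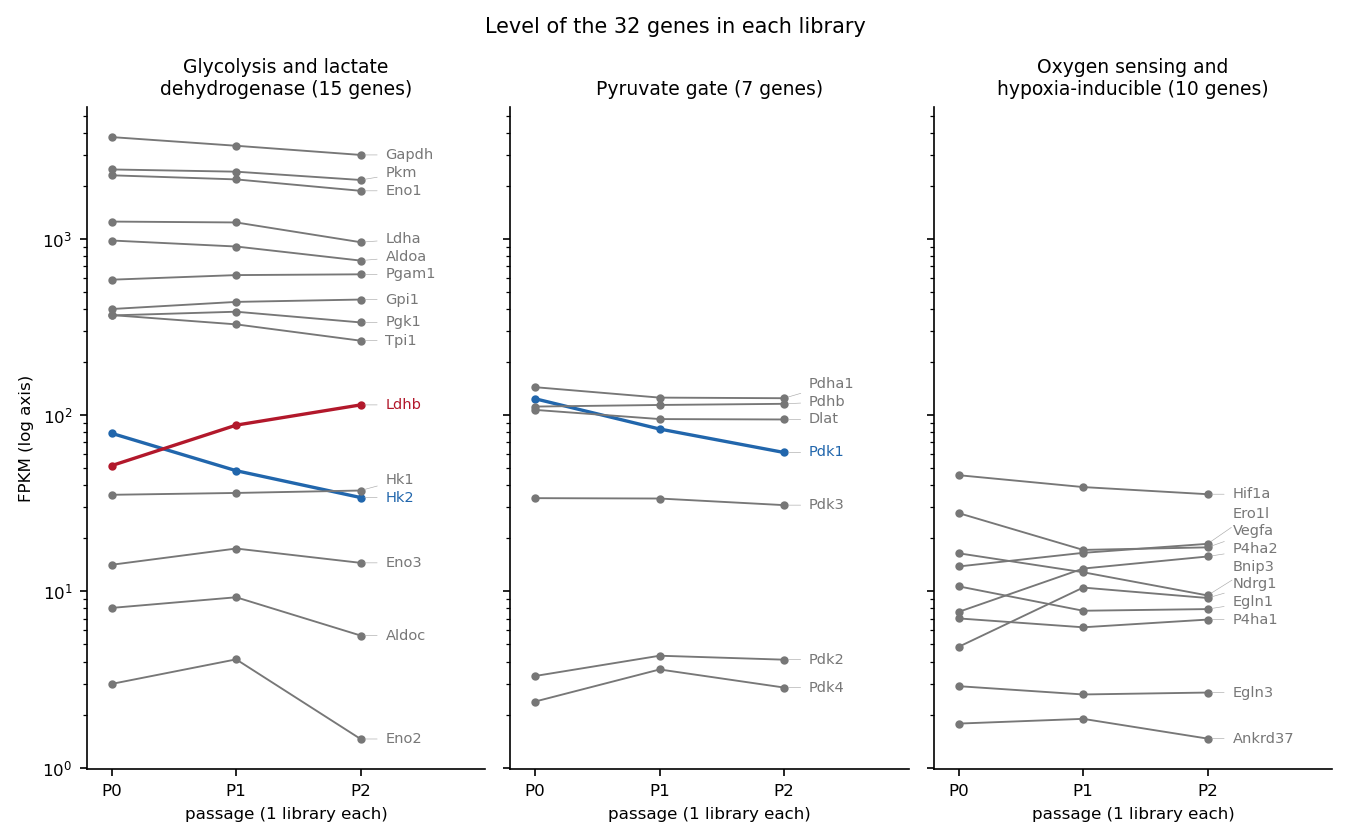
FPKM (log axis) of each of the 32 genes at P0, P1 and P2, 1 library each, with lines joining the values of a gene. Hk2 and Pdk1, which fell at P2 against P0, are blue, and Ldhb, which rose, is red; levels run from 1.45 FPKM for Eno2 at P2 to 3789 FPKM for Gapdh at P0.

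Of the 3 oxygen-sensing genes Hif1a and Egln1 were lower at P2 than at P0, by less than 2-fold. Hif1a, the regulated subunit of the hypoxia factor, measured 45.7 FPKM at P0, 39.1 at P1 and 35.6 at P2, with a ratio of P2 to P0 of 0.780 (interval 0.735 to 0.828). HIF1A is controlled mainly through the stability of the protein, which these data do not measure. Egln1, the main prolyl hydroxylase, measured 10.7, 7.76 and 7.94 FPKM at P0, P1 and P2, so its whole difference lay between P0 and P1 (ratio of P1 to P0 0.727, interval 0.651 to 0.812). Egln3, a hydroxylase that is itself a target of the factor, measured 2.90, 2.60 and 2.67 FPKM, and all its intervals held 1.

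Hypoxia-inducible genes moved in both directions, and none of the 7 listed here passed 2-fold on the scale used. Bnip3, a mitophagy receptor, measured 16.5 FPKM at P0, 12.8 at P1 and 9.48 at P2, and was 1.73-fold lower at P2 than at P0 (interval 1.42 to 2.13). Vegfa, the angiogenic growth factor, measured 27.8, 17.2 and 17.8 FPKM at P0, P1 and P2. Its level at P1 was 0.618 of that at P0 (interval 0.546 to 0.6996) and did not differ beyond counting error between P2 and P1 (ratio 1.03, interval 0.903 to 1.19). Both thus stood below P0 at P1 and at P2, and Bnip3 was lower again at P2 than at P1 (ratio 0.739, interval 0.589 to 0.925).

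P4ha2, Ndrg1 and Ero1l were higher at the later passages. P4ha2, a catalytic subunit of collagen prolyl 4-hydroxylase, measured 7.65 FPKM at P0, 13.5 at P1 and 15.8 at P2, and its ratio of P2 to P0 was 2.06 (interval 1.74 to 2.45). Ndrg1, a stress-responsive gene that restrains growth, measured 4.85, 10.5 and 9.17 FPKM, with a ratio of P1 to P0 of 2.17 (interval 1.71 to 2.76) and of P2 to P0 of 1.89 (interval 1.5 to 2.40). On the log2(FPKM + 1) scale these came to 0.96 for P4ha2 at P2 and 0.98 for Ndrg1 at P1, just short of the limit, and both passed it with a pseudocount of 0.1. Ero1l, the oxidase that forms disulfide bonds in the endoplasmic reticulum, measured 13.9, 16.5 and 18.6 FPKM at P0, P1 and P2, with a ratio of P2 to P0 of 1.34 (interval 1.25 to 1.44).

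The remaining hypoxia-inducible genes gave no difference beyond counting error. P4ha1, the other catalytic subunit of the collagen hydroxylase, measured 7.02, 6.26 and 6.92 FPKM at P0, P1 and P2. The ratio of P4ha2 to P4ha1 was therefore 1.09 at P0, 2.15 at P1 and 2.28 at P2, which is a change of 2.09-fold between P2 and P0 (interval 1.69 to 2.59). Ankrd37, a small ankyrin repeat gene known as a strong target of the factor, measured 1.78, 1.89 and 1.46 FPKM from 29, 24 and 23 reads. At this depth its ratio of P2 to P0, 0.822, had an interval of 0.454 to 1.47, which a level 2-fold lower would also fall within. Over the 10 genes of oxygen sensing and hypoxia the median difference at P2 against P0 was -0.13, against 0.07 over all genes compared. It was -0.35 for the 3 oxygen-sensing genes and -0.02 for the 7 hypoxia-inducible genes.

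**Figure D4:**
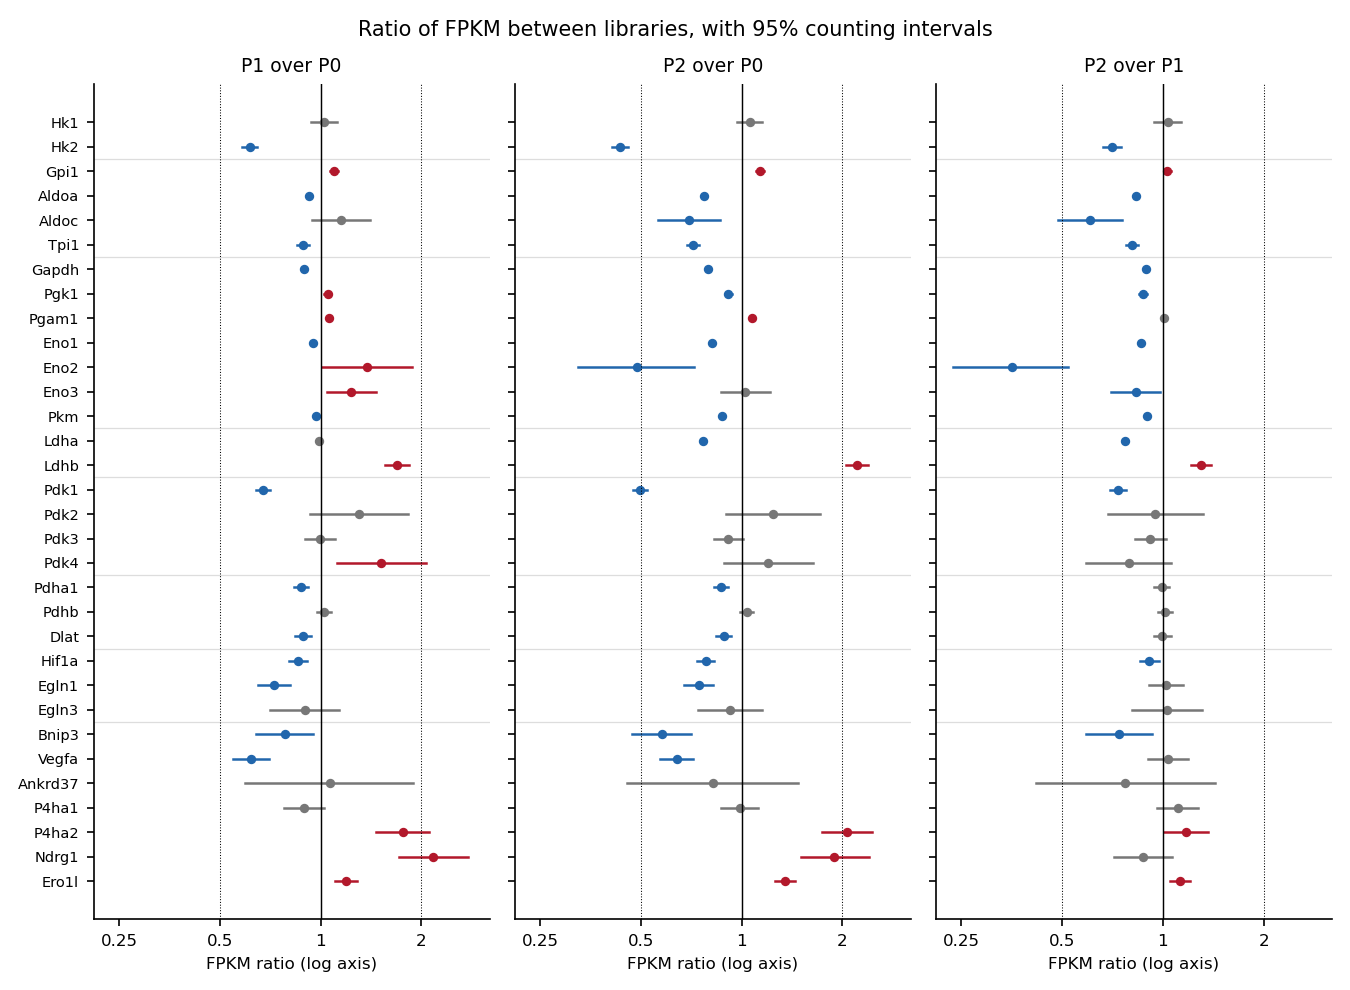
Ratio of FPKM (log axis) of each of the 32 genes for P1 over P0, P2 over P0 and P2 over P1, as points with exact 95% counting intervals as bars, blue where the interval lies below 1, red where it lies above and grey where it holds 1. Dotted lines stand at ratios of 0.5 and 2. In the middle panel Hk2 sits at 0.432, Pdk1 at 0.496 and Ldhb at 2.21.

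Counting intervals separate many small differences in these abundant genes. At P2 against P0 the interval lay below 1 for 17 of the 32 genes and above 1 for 6, where 25.7% of all genes compared were below and 39.6% above. At P1 against P0, 13 were below and 10 above, against 22.6% and 34.5% of all genes. At P2 against P1, 14 were below and 4 above, against 18.9% and 24.1%. The intervals narrow as reads increase, and the median gene of the 32 had 1818 reads at P2 and 1242 at P0, against 541 and 517 over all genes compared, so these shares are not on an equal footing.

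Other genes of the same pathways were taken from lists of transporters, isozymes, branch enzymes and hypoxia genes. Of 9 glucose and lactate transport genes, 7 were compared and none passed 2-fold. The glucose transporter gene Slc2a3 measured 402, 326 and 365 FPKM at P0, P1 and P2, and Bsg, the chaperone of the lactate carriers, 319, 406 and 473 FPKM. Slc16a3, a lactate carrier gene, was lower at each passage, at 53.9, 48.1 and 32.9 FPKM. Its ratio of P2 to P0 was 0.612 (interval 0.568 to 0.658). Slc2a1, another glucose transporter gene, went the other way, at 254, 256 and 294 FPKM at P0, P1 and P2. Its ratio of P2 to P0 was 1.155 (interval 1.12 to 1.19). None of the 8 genes compared for mitochondrial pyruvate passed 2-fold on the scale used. Dld, the E3 subunit, measured 46.2, 42.4 and 46.8 FPKM and Pdhx, the binding protein of E3, 24.6, 25.6 and 26.9 FPKM. Mpc1 differed by 0.88 in log2(FPKM + 1) at P2 against P0. Its FPKM ratio was 2.47 (interval 1.455 to 4.32), from 21 reads at P0 and 50 at P2. The ratio of P2 to P0 was 1.87 for Pc (interval 1.67 to 2.10) and 0.732 for Pdp2 (interval 0.648 to 0.827). In the pentose phosphate branch none of 7 genes passed 2-fold. Tkt, a transketolase, measured 246, 253 and 241 FPKM and Taldo1, the transaldolase, 206, 253 and 281 FPKM. All 11 further oxygen-sensing genes stayed within 2-fold as well, including the elongin subunits of the von Hippel-Lindau ligase, Tceb2 (Elob) at 474, 469.6 and 501 FPKM and Tceb1 (Eloc) at 142, 142 and 146 FPKM.

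The phosphofructokinase step and minor isozymes held larger differences. Of 12 genes compared at P2 against P0, 4 rose and 1 fell, where 6.72% and 1.16% of all genes did. The platelet-type phosphofructokinase gene Pfkp fell to 26.0 FPKM at P2, against 61.1 at P0 (2.35-fold lower, interval 2.18 to 2.53). The other 2 phosphofructokinase genes did not fall: Pfkl, the liver type and the most abundant, stood at 214 FPKM at P2 and 212 at P0, and Pfkm, the muscle type, at 25.7 FPKM at P2 and 17.4 at P0 (ratio 1.48, interval 1.37 to 1.595). The bisphosphatase genes Fbp1 and Fbp2, whose enzymes run the opposite reaction, measured 26.0 and 23.2 FPKM at P2, against 1.57 and 2.34 at P0. Pgam2, the muscle isozyme of the mutase, rose to 7.07 FPKM at P2, against 2.56 at P0 (2.76-fold, interval 1.98 to 3.90). Beside it the abundant Pgam1 stood at 630.4 FPKM at P2 and 588 at P0. The remaining rise was that of Pfkfb4, to 3.33 FPKM at P2, against 1.02 at P0 (3.26-fold, interval 2.28 to 4.75).

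Further hypoxia-inducible genes also went both ways, as the listed 7 did. Of 17 compared at P2 against P0, 3 rose and 1 fell, where 6.72% and 1.16% of all genes did. The median difference of these 17 was 0.20, against 0.07 over all genes compared and -0.02 for the listed 7. Ddit4, an inhibitor of mTORC1 that also responds to p53 and other stresses, rose to 152 FPKM at P2, against 37.3 at P0 (4.09-fold, interval 3.86 to 4.33). Car12, a membrane carbonic anhydrase, rose to 4.51 FPKM at P2, against 0.722 at P0, and Plod2, a collagen lysyl hydroxylase, to 55.0 FPKM at P2, against 25.5 at P0. The glycoprotein hormone gene Stc2, which also responds to ATF4, fell to 2.64 FPKM at P2, against 9.72 at P0 (3.69-fold lower, interval 2.98 to 4.59). Car9, often used as a hypoxia marker, was at 0.313 FPKM at P2 and 0.302 at P0, from 6 reads each, below the limit for comparison.

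**Figure D5:**
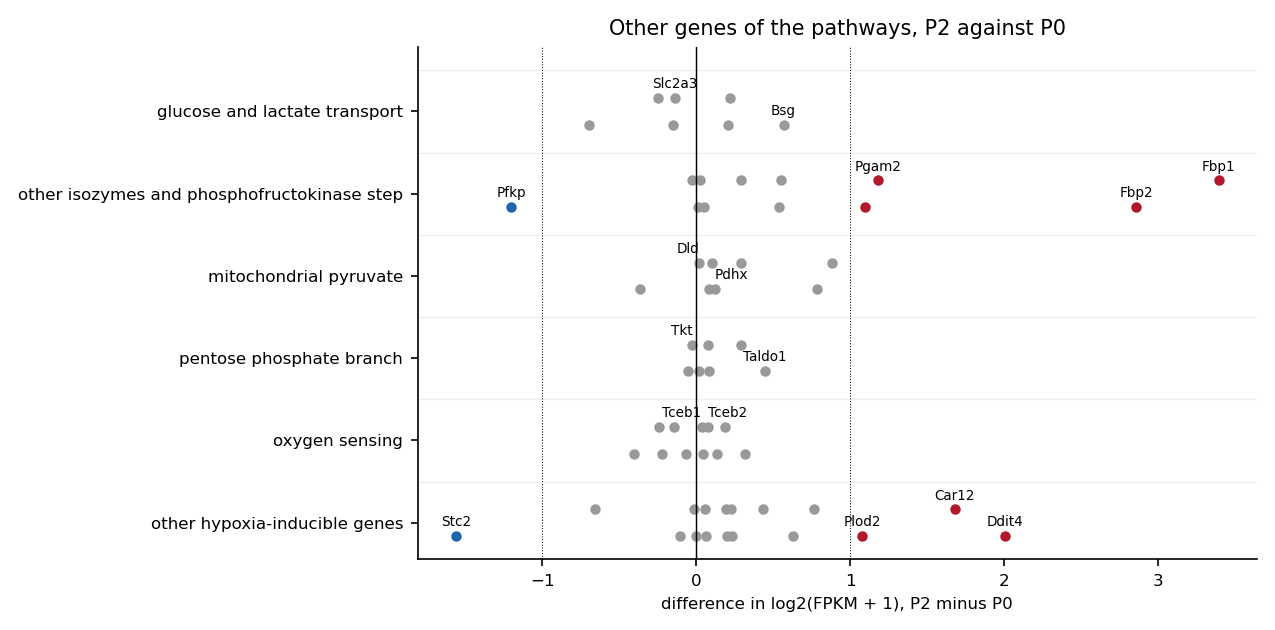
Difference in log2(FPKM + 1) for P2 minus P0 of the genes compared in 6 other lists of the pathways, 1 point per gene, red for rises and blue for falls past the dotted lines at 1 and -1. Named are the genes picked from each list by the rule given under processing, not every gene given in the text. Fbp1 lies at 3.39, Fbp2 at 2.86, Pfkp at -1.20 and Stc2 at -1.56, and 4 of the 6 lists have no point past the lines.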

How the data were processed

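The authors deposited 1 table of FPKM values. The submitters' processing notes list Bowtie2 2.0.6, TopHat2 2.0.9 and the build mm9; the counter, annotation and strand setting are unknown here, so overlapping antisense genes are uncertain. Symbols came from GENCODE M21 (49326 of 50043 IDs matched). FPKM equals whole reads over gene length and library total, so totals and reads were recovered by searching for values that made reads whole within a relative tolerance of 1e-09; all 26291 IDs above 0 did so, and 0 of 500 with changed totals. Recovered reads summed to 100.5% of the total in each library. A factor common to reads and length was settled by the annotated mean transcript length, within 1 base for 27 of the 32 genes. It was not for Aldoa, Tpi1, Pgam1, Pdhb and Ero1l, whose intervals are less sure. The same holds for Pc, Pfkm, Pfkp and Ddit4 outside the 32. Intervals are exact conditional Clopper-Pearson bounds; those on changes of a ratio of 2 genes are exact conditional odds-ratio bounds. The steps were tested on simulated data. The genes and lists were chosen with earlier results of these data known. From each other list the text names called genes, at most 4 by size, or the 2 with the highest mean where none was called. Car9, Pfkl, Pfkm, Pfkfb4, Mpc1, Pc, Pdp2, Slc2a1 and Slc16a3 were added after their values were seen. Promoters were matched by symbol to RefSeq, Ero1l as Ero1a. As alternatives, the pseudocount was set to 0.1, the floor to FPKM 5 or to none, and the libraries were scaled in 3 other ways, rescaled after removal of unnamed models and short RNA genes, or thinned to the depth of P1. The software was scipy 1.17.1, numpy 2.4.6 and pandas 2.3.3 under Python 3.11.15, with plots by matplotlib 3.10.9.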

Additional observations from a re-analysis of the deposited data

How the results depend on the processing

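No paired analysis was possible because each passage has 1 library. Hk2 was called a fall at P2 against P0 under all 8 alternatives, whereas Pdk1, Ldhb, Eno2, Ndrg1 and P4ha2 lay near the limit. With a pseudocount of 0.1, 2 genes of the 32 rose at P2 against P0 (Ldhb and P4ha2) and 1 at P1 against P0 (Ndrg1), and Ndrg1 also passed after rescaling to 1000000 per library with or without short RNA genes. Rescaling, in both forms, and thinning left 1 fall at P2 against P0, median-of-ratios scaling left 0 rises, and a floor of FPKM 5, which leaves out Eno2, left 0 falls at P2 against P1. Median-of-ratios scaling moved the median over all genes to -0.05 at P2 against P0 (0.07 as deposited) and -0.05 at P1 against P0 (0.06), and that of the 32 genes to -0.29 and -0.13; relative to all genes the 32 were at -0.23 at P2, against -0.25 as deposited and -0.16 after quantile normalization. Of the 32, 25 were lower and 7 higher at P2 against P0 under median-of-ratios scaling and 24 and 8 under quantile normalization, and at P1 against P0 22 were lower and 10 higher under median-of-ratios scaling. Under quantile normalization the median of the 32 at P1 against P0, -0.02, stood above that of all genes, -0.04. Over all genes, a pseudocount of 0.1 gave 1079 rises and 175 falls at P1 against P0, 1569 and 286 at P2 against P0 and 370 and 265 at P2 against P1, and a floor of FPKM 5 gave 310 and 32, 512 and 87, and 41 and 43. Rescaling to 1000000 gave 122 falls at P1 against P0 and 183 rises and 197 falls at P2 against P1, quantile normalization 128 falls at P1 and 259 at P2 against P0, and leaving out short RNA genes 71 falls at P2 against P1. Below about 100 reads, as for Eno2, Pdk2, Pdk4 and Ankrd37, counting error alone spans much of the differences seen.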
